A study of Homo sapiens with 4 samples.

Results

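In 6T-CEM, a human cell line of T-cell acute lymphoblastic leukaemia (T-ALL), 2111 regions at an end of exactly 1 protein-coding gene carried peaks of both ETS1 and RUNX1 in all libraries. The study profiled each factor by CUT&Tag, in which an antibody directs a transposase to the chromatin around its target. There were 2 ETS1 libraries and 2 RUNX1 libraries, and the labels give no treatment and no genetic change of the cells. The data are peak lists, 1 for each library, which the authors called against IgG, an antibody without a chromatin target. The labels do not state whether the 2 libraries of a factor derive from different cultures, so spreads and p-values speak only of these libraries and may be technical. The ETS1 lists held 6082 and 5625 peaks and the RUNX1 lists 25360 and 25001, while read totals are unknown.

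For each factor, touching peaks of both libraries on chromosomes 1 to 22 and X were merged, and a merged region was kept when each library had a peak in it. Of 5055 such ETS1 regions, 4953 overlapped one of 22802 RUNX1 regions by at least 1 bp. The 2111 regions, 42.6% of the 4953, had their midpoint within 1000 bp of an outer end of 1 protein-coding gene in RefSeq and of no other. They belonged to 2076 genes, or 10.5% of the 19821 genes considered. For comparison, 763 shared regions lay where ends of 2 or more genes were close together, 1309 lay inside genes and 770 outside genes, and 4331 RUNX1 regions lay at an end of 1 gene without ETS1. The regions were chosen by the peak calls of all 4 libraries, so fold values and the presence of both factors are a description with no test.

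ETS1 gave its name to the ETS family, whose proteins bind DNA around a GGAA core, with CCGGAA a common form at promoters. RUNX1 binds TGTGGT or the related TGCGGT as a complex with CBFB, a partner that does not itself bind DNA. In T cells both proteins take part in the control of T-cell receptor genes and of thymocyte development, and RUNX1 is among the genes mutated in T-ALL. The start of a gene holds its promoter, where sequence-specific factors and the general transcription machinery meet.

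Promoter sequences of 6 genes are printed to show what the DNA under such a region looks like, each taken from RefSeq (GRCh38.p14, the assembly of hg38) from 250 bases before the start to 50 bases at and after it, 5′ to 3′ on the strand of the gene. They come from 8 genes whose 4 strongest summits all lay in the window, taken in order of the lower of the mean ETS1 and mean RUNX1 fold. The 5 of these with an ETS or RUNX core were put first, so the printed set says nothing of how common the cores are. Capitals mark CCGGAA, the ETS core searched here, and TGTGGT or TGCGGT, the RUNX cores, on either strand. A core on the other strand is printed as its reverse complement. GGAA in other settings is not marked or counted. ZNF200 (chr16:3235109-3235408, minus strand) holds one core of each kind, and DOHH (chr19:3500625-3500924, minus strand) holds both kinds as well.
ZNF200: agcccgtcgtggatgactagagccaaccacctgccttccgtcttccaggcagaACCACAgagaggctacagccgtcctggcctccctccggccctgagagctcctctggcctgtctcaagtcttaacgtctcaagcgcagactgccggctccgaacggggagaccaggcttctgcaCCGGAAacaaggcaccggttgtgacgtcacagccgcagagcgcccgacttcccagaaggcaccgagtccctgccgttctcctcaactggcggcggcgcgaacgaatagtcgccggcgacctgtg
DOHH: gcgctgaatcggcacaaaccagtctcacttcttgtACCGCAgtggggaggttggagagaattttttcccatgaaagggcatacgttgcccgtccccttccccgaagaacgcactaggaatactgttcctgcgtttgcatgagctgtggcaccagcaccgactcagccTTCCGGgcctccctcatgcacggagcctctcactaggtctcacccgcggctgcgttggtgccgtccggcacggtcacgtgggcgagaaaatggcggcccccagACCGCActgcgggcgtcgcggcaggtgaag
RPS16 (chr19:39435900-39436199, minus strand) and RRM2 (chr2:10122318-10122617, plus strand) each hold a single CCGGAA. ATP5PD (chr17:75046920-75047219, minus strand) holds a pair of CCGGAA that overlap on opposite strands. RPS16 and ATP5PD also hold GGAA in other settings.
RPS16: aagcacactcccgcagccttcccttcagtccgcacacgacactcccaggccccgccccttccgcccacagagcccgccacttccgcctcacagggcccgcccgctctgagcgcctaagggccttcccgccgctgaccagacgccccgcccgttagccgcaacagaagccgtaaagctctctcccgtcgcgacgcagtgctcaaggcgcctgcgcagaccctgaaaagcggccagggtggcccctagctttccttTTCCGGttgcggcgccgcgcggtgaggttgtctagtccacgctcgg
RRM2: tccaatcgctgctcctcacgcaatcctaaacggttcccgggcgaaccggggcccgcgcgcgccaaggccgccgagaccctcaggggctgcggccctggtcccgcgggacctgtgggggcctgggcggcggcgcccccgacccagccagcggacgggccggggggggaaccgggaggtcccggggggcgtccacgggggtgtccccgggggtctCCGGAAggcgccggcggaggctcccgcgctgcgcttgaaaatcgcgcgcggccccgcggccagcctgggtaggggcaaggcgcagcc
ATP5PD: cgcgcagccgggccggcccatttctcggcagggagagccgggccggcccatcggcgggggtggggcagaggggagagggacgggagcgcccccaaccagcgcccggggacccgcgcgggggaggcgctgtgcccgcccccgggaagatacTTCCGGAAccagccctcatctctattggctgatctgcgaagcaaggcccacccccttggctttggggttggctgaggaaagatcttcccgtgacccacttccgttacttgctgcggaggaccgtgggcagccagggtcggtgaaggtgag
TCF3 (chr19:1652566-1652865, minus strand) holds none of these letters and is shown for contrast. RPL19 and SLC35E2B, the remaining genes of the 8, hold none either. The contrast covers these exact letters only, as GGAA in other settings occurs in TCF3 and RPL19.
TCF3: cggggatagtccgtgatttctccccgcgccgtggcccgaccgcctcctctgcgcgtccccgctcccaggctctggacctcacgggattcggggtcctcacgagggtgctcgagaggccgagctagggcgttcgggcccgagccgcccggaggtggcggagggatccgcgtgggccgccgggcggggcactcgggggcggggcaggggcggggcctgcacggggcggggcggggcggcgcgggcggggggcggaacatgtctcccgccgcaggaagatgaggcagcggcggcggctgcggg

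At ZNF200, which encodes a zinc finger protein, the ETS1 summits lay 147 and 180 bp before the start and the RUNX1 summits 179 and 183 bp before it. The RUNX core there covers bases −197 to −192, close to 3 of those summits, and the ETS core lies further downstream at −74 to −69. At RRM2, which encodes the small subunit of ribonucleotide reductase, all 4 summits lay between 29 and 37 bp after the start, whereas the ETS core lies at −37 to −32. A match to a core is a description of the letters and no evidence of contact.

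The deposited fold is the authors' enrichment over IgG at a peak's summit, and a region's fold is that of its strongest peak in a library. Across the 2111 regions the median ETS1 fold was 5.78 in library 1 and 5.78 in library 2, against a median RUNX1 fold of 13.3 and 12.8. The summit pileup, the number of stacked fragments solved from the deposited fold and p-value, had medians of 62 and 57 for ETS1 and 163 and 152 for RUNX1. The median expectation from IgG differed little, at 9.95 and 9.10 fragments for ETS1 and 11.7 and 11.1 for RUNX1. The higher RUNX1 folds thus came with higher pileups over similar IgG levels.

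Libraries of the same antibody gave nearly the same fold at a region. Both ETS1 folds were within 1.5 times of each other at 2077 regions (98.4%), and both RUNX1 folds at 2074 (98.2%). The SD of the log2 ratio of library 1 to library 2 was 0.20 for ETS1 and 0.19 for RUNX1. Between the factors the folds went together more loosely: Spearman's rho over the 2111 regions was 0.443 for ETS1 against RUNX1, compared with 0.930 between the ETS1 libraries and 0.972 between the RUNX1 libraries. The regions come from the same 4 libraries and were called against IgG, so the coefficients are descriptive.

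**Figure D1:**
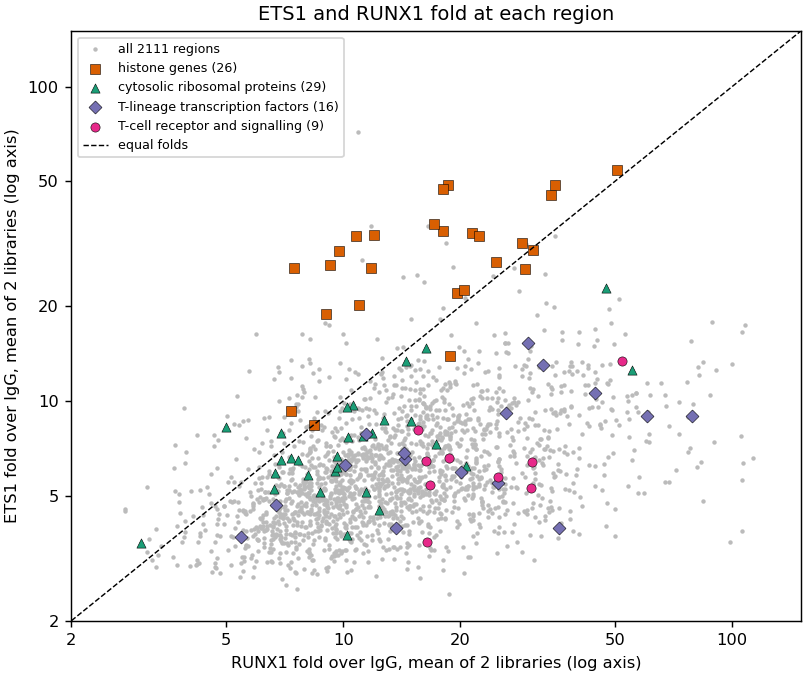
Each point is one of the 2111 regions, with the mean ETS1 fold over IgG of 2 libraries on the vertical axis and the mean RUNX1 fold of 2 libraries on the horizontal axis, both logarithmic. Most points lie below the line of equal folds, and most of the 26 histone regions (squares) lie above it.

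The ETS1 fold lay below the RUNX1 fold in every library at 1902 of the 2111 regions (90.1%), where 91.6% of all 4953 shared regions did so. It lay above the RUNX1 fold in every library at 114 regions (5.4%), against 4.58% of all shared regions, and the libraries overlapped at 95 regions. Both shares at gene ends were therefore near those of shared regions as a whole. The median log2 ratio of ETS1 to RUNX1 fold was −1.10 at single gene ends, against −0.90 where several ends were close, −1.80 inside genes and −1.71 outside genes. ETS1 folds were much alike in these places, with medians of 5.78 and 5.78 at single gene ends, 5.91 and 6.00 at close ends, 5.77 and 5.74 inside genes and 5.98 and 5.95 outside genes. RUNX1 folds were the part that varied, with medians of 13.3 and 12.8 at single gene ends, 11.9 and 11.8 at close ends, 20.8 and 20.8 inside genes and 20.6 and 20.5 outside genes.

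RUNX1 peaks of the 2111 regions also stood above RUNX1 peaks at single gene ends that lacked ETS1. Their median fold was 13.3 and 12.8, against 6.71 and 6.45 at the 4331 regions without ETS1, and their median pileup was 163 and 152 fragments, against 80 and 73. The 2 sets were placed differently, the 2111 by the ETS1 midpoint and the 4331 by the RUNX1 midpoint. A RUNX1 summit of the 2111 can thus lie far from the ETS1 summit, by 6500 bp at E2F2. The same holds for the shares at 5′ ends and the summit positions below. ETS1 regions overlapped 2057 of the 6388 RUNX1 regions at single gene ends (32.2%). ETS1 peaks were narrower than the RUNX1 peaks they overlapped, with a median width over libraries of 621.5 ± 29.0 bp for ETS1 and 1287.5 ± 21.9 bp for RUNX1 (SD, n = 2 libraries each). The difference of −666 bp exceeded the spread between libraries, and a two-sided exact permutation test over the 4 libraries gave p = 0.333, the smallest that 2 against 2 allows. It shrank to −341 bp among pairs of regions that covered at least 50% of each other.

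The strongest summits of both factors were usually close together. The median gap between the ETS1 and RUNX1 summits, each averaged over 2 libraries, was 54 bp, with 1453 regions (68.8%; 95% Wilson interval 66.8 to 70.8, which covers counting error only) at 100 bp or less and 662 (31.4%) at 25 bp or less. Inside genes 61.1% of shared regions had a gap of 100 bp or less (58.4 to 63.7). The RUNX1 summits of both libraries fell inside the ETS1 region at 1989 of the 2111 regions (94.2%). Some of the rest lay in broad RUNX1 regions, and 38 regions shared a RUNX1 region with another of the 2111.

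The strand was known for the genes of 1784 regions. Of these, 1678 regions (94.1%; 92.9 to 95.1) lay at the 5′ end of the gene, 75 (4.20%) at the 3′ end and 31 (1.74%) within the window of both ends of a short gene. RUNX1 regions without ETS1 lay at the 5′ end in 3165 of 3492 cases (90.6%; 89.6 to 91.6), at the 3′ end in 308 (8.82%) and at both in 19 (0.544%). Histone genes such as H4C2 and H3C3 made up 21 of the 31 regions in reach of both ends. Regions at 3′ ends included those of ATF5, which encodes a stress-responsive transcription factor, PTPN6, which encodes the phosphatase SHP-1, and IL2RG, which encodes the common cytokine receptor chain.

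At 5′ ends both factors had summits on each side of the start. The median summit position relative to the start was −44 and −46.5 bp for ETS1, against −22 and −26 bp for RUNX1 in the same regions and 25 bp in both RUNX1 libraries at 5′ ends without ETS1. The median position averaged −45.25 ± 1.77 bp for ETS1 and −24 ± 2.83 bp for RUNX1 (SD, n = 2 libraries each), a difference of −21.25 bp (two-sided exact permutation p = 0.333, the smallest possible). The difference shrank to −13 bp without ETS1 library 1. It was −11.5 bp with equal numbers of peaks and −7 bp with a window of 2000 bp, and under both settings the ETS1 and RUNX1 libraries no longer separated (exact permutation p = 0.667 each). The share of summits upstream of the start was 54.7% and 55.1% for ETS1 and 53.0% and 53.6% for RUNX1, against 44.9% and 45.7% for RUNX1 without ETS1.

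The summits were spread over both sides of the start. In steps of 50 bp, ETS1 summits numbered 156 and 144 between 150 and 100 bp upstream, 118 and 128 between 100 and 50 bp upstream, 101 and 94 in the last 50 bp before the start, and 144 and 147 in the first 50 bp after it. RUNX1 summits numbered 124 and 134, 111 and 107, 121 and 113, and 139 and 143 in the same steps. ETS1 thus had its lowest count of these steps in the last 50 bp before the start, and RUNX1 between 100 and 50 bp upstream, in both libraries of each.

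**Figure D2:**
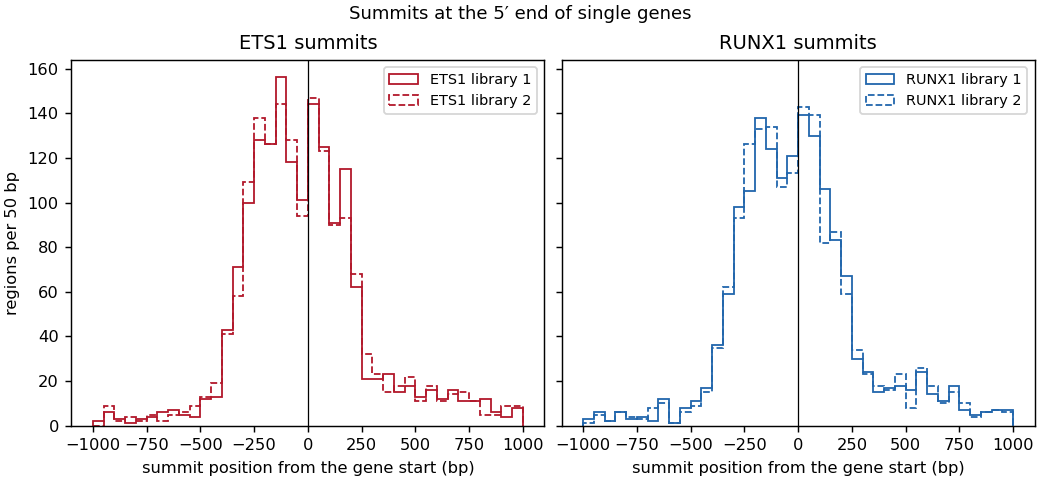
Number of regions per 50 bp by the position of the strongest summit relative to the gene start (bp, upstream negative), for the 1678 regions at 5′ ends, with ETS1 on the left and RUNX1 on the right and a line for each library. Each library shows a hump on either side of the start. The low between them lies in the last 50 bp before the start for ETS1. For RUNX1 it lies between 100 and 50 bp upstream and differs little from the next step, and neither position was tested.

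Genes with a region were read against 25 lists of genes, beside the 10.5% of all protein-coding genes that had one. Among T-lineage and T-ALL transcription factors 15 of 49 genes (30.6%) had a region, a further 3 had one between close ends, 11 (22.4%) had RUNX1 only, against 26.6% of all genes, and 20 had neither at an end. TCF3, an E protein that T-ALL oncoproteins bind, had ETS1 folds of 13.5 and 17.1 and RUNX1 folds of 30.4 and 29.5. ZEB1, a zinc finger repressor, had 14.0 and 11.96 for ETS1 and 33.0 and 32.3 for RUNX1. HHEX, a homeobox gene of early blood and T-ALL cells, had 10.8 and 10.4 for ETS1 and 44.4 and 44.3 for RUNX1. In each of these genes the RUNX1 folds lay above the ETS1 folds in every library.

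RUNX1 itself had such a region at its 5′ end, with ETS1 folds of 8.35 and 9.59 and RUNX1 folds of 58.0 and 63.1. CBFB, the gene of its partner, had 5.93 and 5.02 for ETS1 and 24.8 and 25.2 for RUNX1. LYL1, a T-ALL oncogene of the TAL1 family, had 8.83 and 9.05 for ETS1 and 79.5 and 77.9 for RUNX1, though its strongest summits were 2667 bp apart within a broad RUNX1 region. MYC, the growth regulator downstream of NOTCH1 in T-ALL, had 8.22 and 7.45 for ETS1 and 11.7 and 11.2 for RUNX1. The ETS1 gene had no region of either kind within the window, and SH2D1A, the adaptor gene in the study's title, had a RUNX1 region without ETS1. The median log2 ratio over the 15 factors was −1.51, below the −1.09 over all genes with a region.

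Among genes for the T-cell receptor and the signalling next to it, a region was found in 9 of 46 cases (19.6%), and 21 more (45.7%) had RUNX1 without ETS1, against 26.6% of all genes. With summits required to lie within 100 bp, 2 of the 46 (4.35%) had a region, below the 7.28% of all genes under that setting. CD3E, which encodes a signalling chain of the receptor, had ETS1 folds of 14.4 and 12.3 and RUNX1 folds of 51.6 and 52.3. The midpoint of the CD3E region lay 698 bp outside the gene, past the end with the higher coordinate. CD3E was among the genes without a known strand, so the region was not assigned to the promoter. CD3D, its neighbour in the complex, had 10.05 and 6.11 for ETS1 and 15.4 and 15.8 for RUNX1. LCK, the kinase that phosphorylates these chains, had 5.94 and 5.54 for ETS1 and 23.3 and 26.9 for RUNX1. The median log2 ratio of this list, −1.96, was the lowest of the lists with at least 3 genes. As only 2 of the 9 genes kept a region with summits within 100 bp, most of these ratios compare summits further apart. The gap was 2335 bp at PTPN6, 813 bp at CSK and 50 bp at CD3E. Of 7 T-cell markers, CD3D, CD3E, CD7 and LCK had a shared region, CD2 had RUNX1 only, and CD3G and CD5 had neither within the window. Markers of other lineages had a region in 1 of 12 cases for B cells (VPREB1), 0 of 12 for myeloid cells, 0 of 12 for erythroid cells and megakaryocytes and 0 of 16 for tissues other than blood. The B-cell share of 8.33% is near the 10.5% of all genes, and counts of 0 of 12 and 0 of 16 allow shares of up to 25% and 18.8% (3 counts), so these lists are too short to be told apart from all genes.

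Of 36 genes for cytokine receptors, JAK-STAT signalling and survival, 9 (25%) had a region. STAT5B, which carries signals of interleukin receptors to the nucleus, had ETS1 folds of 6.32 and 6.43 and RUNX1 folds of 9.26 and 10.7. PIM1, a kinase gene induced by STAT5, had 4.57 and 4.71 for ETS1 and 41.5 and 40.8 for RUNX1. BAX, a promoter of apoptosis, was the member of this list with ETS1 above RUNX1 in every library, at 6.26 and 6.45 for ETS1 and 4.56 and 3.26 for RUNX1. Cell cycle and replication genes had a region in 12 of 59 cases (20.3%) and DNA repair genes in 9 of 47 (19.1%). RRM2 had 10.99 and 10.7 for ETS1 and 13.9 and 11.8 for RUNX1. CDT1, which licenses replication origins, had 14.0 and 12.9 for ETS1 and 8.14 and 6.56 for RUNX1. FANCI, of the crosslink repair pathway, had 13.1 and 12.9 for ETS1 and 15.2 and 14.7 for RUNX1.

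Lists of genes that every dividing cell uses were not uniform. SR and hnRNP splicing factors had a region in 15 of 38 cases (39.5%), histone genes in 26 of 69 (37.7%), cytosolic ribosomal proteins in 28 of 87 (32.2%), translation initiation factors in 15 of 55 (27.3%) and ZNF genes in 110 of 510 (21.6%). For single ends, mitochondrial ribosomal proteins were at the background, with 8 of 77 (10.4%). Proteasome subunits (5 of 39, 12.8%), tRNA synthetases (4 of 35, 11.4%) and nucleoporins (2 of 23, 8.70%) were close to it. These shares leave out shared regions between close ends. A further 12 mitochondrial ribosomal, 6 proteasome, 4 tRNA synthetase and 5 nucleoporin genes had one of those, as did 1450 of all 19821 genes. Oxidative phosphorylation subunits had 12 of 74 (16.2%), Mediator subunits 4 of 28 (14.3%), RNA polymerase II and general factors 6 of 38 (15.8%) and the anaphase-promoting complex with cohesin and condensin 7 of 30 (23.3%). Solute carriers lay below the background, with 20 of 347 (5.76%), as did keratins, with 1 of 55 (KRT2, at its 3′ end). Olfactory receptors lay below it too, with 0 of 387, which allows up to 0.775%.

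Several of these shares changed when each library was cut to the same number of peaks. The cut removed most RUNX1 peaks and also some ETS1 peaks of library 1, and the part of each was not tested. With the 5611 strongest peaks of each library, 5.30% of all genes had a region. Cytosolic ribosomal proteins then had 6 of 87 (6.90%), 1.30 times the share of all genes, where they had 3.07 times that share with all peaks. Oxidative phosphorylation subunits had 2 of 74 (2.70%), and the anaphase-promoting complex with cohesin and condensin 0 of 30, so both lists went below the share of all genes. Splicing factors had 6 of 38 (15.8%), T-lineage transcription factors 10 of 49 (20.4%), T-cell receptor genes 7 of 46 (15.2%), initiation factors 6 of 55 (10.9%) and histones 8 of 69 (11.6%), all above it.

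**Figure D3:**
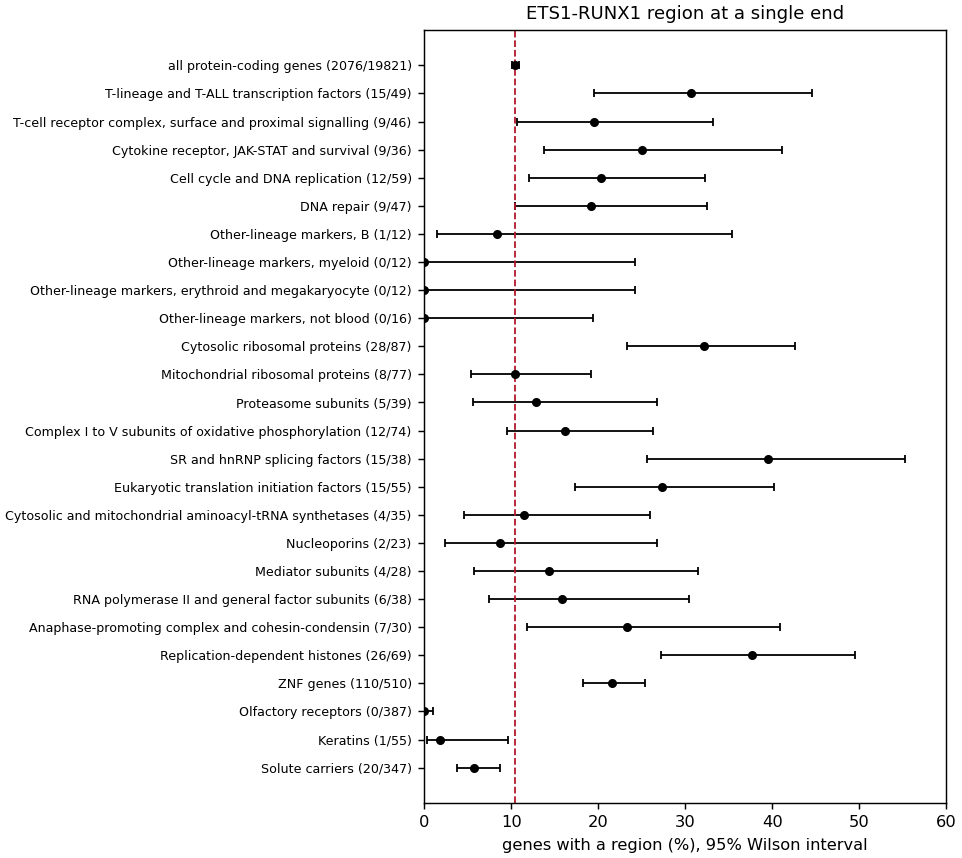
Share of the genes of each list with an ETS1-RUNX1 region at a single end (points, with 95% Wilson intervals), with the number of genes beside each name. The dashed line is the 10.5% of all protein-coding genes, and splicing factors, histones, ribosomal proteins and T-lineage transcription factors lie farthest to its right.

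The ratio of ETS1 to RUNX1 fold differed along with the list. The folds come from different antibodies and read totals are unknown, so the ratio does not measure how much of each factor was bound. Median log2 ratios of ETS1 to RUNX1 fold were −0.37 for mitochondrial ribosomal proteins, −0.50 for cytosolic ribosomal proteins, −0.55 for oxidative phosphorylation, −0.59 for translation initiation factors, −0.63 for splicing factors and −0.68 for ZNF genes, all above the −1.09 of all genes. RPS19, a subunit of the small ribosomal particle, had ETS1 folds of 22.5 and 23.1 and RUNX1 folds of 47.0 and 47.8, with summits 18 bp apart. RPL19, of the large particle, had nearly equal folds, at 15.2 and 14.3 for ETS1 and 16.8 and 15.9 for RUNX1. SRSF1, a splicing factor, had 15.3 and 14.3 for ETS1 and 14.9 and 13.6 for RUNX1. UQCRC2, a subunit of respiratory complex III, had 7.82 and 7.80 for ETS1 and 4.18 and 4.22 for RUNX1. ETS1 lay above RUNX1 in every library at 2 of 29 regions of cytosolic ribosomal proteins (6.90%), 1 of 15 of initiation factors (6.67%) and 1 of 12 of oxidative phosphorylation (8.33%), close to the 5.4% of all regions.

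**Figure D4:**
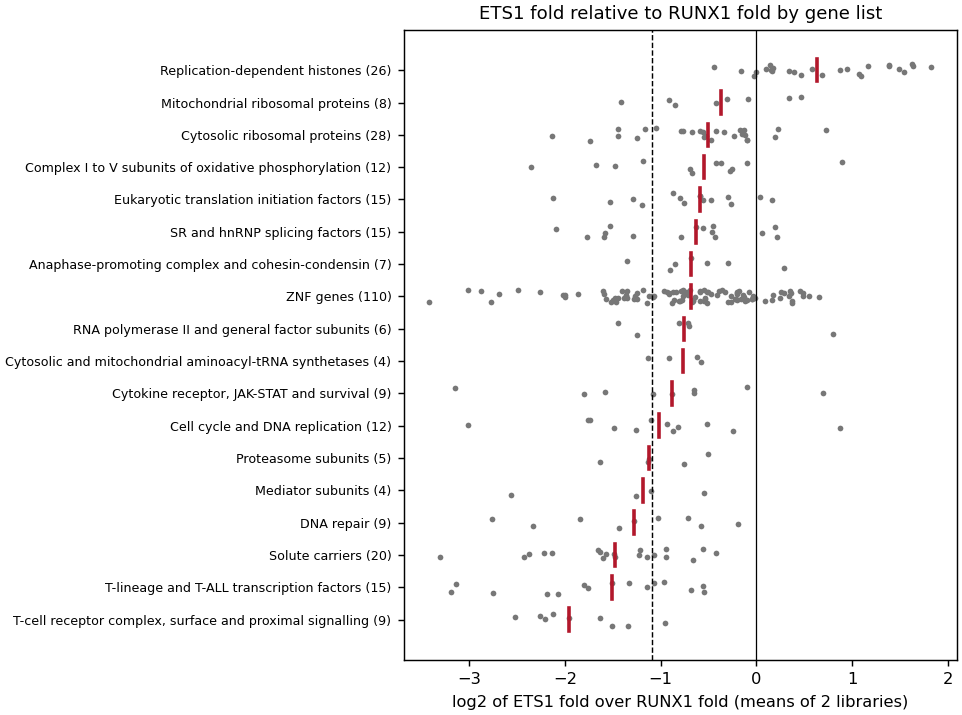
Each point is a gene with a region, placed by the log2 ratio of its mean ETS1 fold to its mean RUNX1 fold (means of 2 libraries each), for lists with at least 4 such genes. Red bars are list medians, and the dashed line is the median of all genes with a region (−1.09). The lists run from histones (0.63) at the top to T-cell receptor genes (−1.96) at the bottom. At most of the T-cell receptor genes the ETS1 and RUNX1 summits lay more than 100 bp apart.

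Replication-dependent histone genes stood apart from the other lists. ETS1 lay above RUNX1 in every library at 21 of their 26 regions (80.8%), against 93 of the 2085 other regions (4.46%). Their median ETS1 fold was 29.9 and 30.2 and their median RUNX1 fold 18.5 and 18.0. H2BC5, an H2B gene, had ETS1 folds of 46.6 and 50.6 and RUNX1 folds of 18.1 and 19.1. H3C3, an H3 gene, had 33.8 and 33.4 for ETS1 and 11.1 and 10.5 for RUNX1. H4C2, an H4 gene, had the highest mean folds of both kinds among them, at 53.3 and 55.2 for ETS1 and 52.9 and 48.3 for RUNX1.

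The IgG expectation at histone regions was low, with medians of 2.93 and 2.68 fragments for ETS1 and 3.45 and 3.60 for RUNX1, against 9.95 and 9.10 and 11.7 and 11.1 over all 2111 regions. The ETS1 pileup was still above the overall median, at 108.5 and 102 fragments against 62 and 57, while the RUNX1 pileup was below it, at 77 and 72.5 against 163 and 152. The low IgG level thus moves with the high folds of both factors, whereas the order of the factors is the same in the pileups. H2BC5, H4C2 and H3C11 had the same IgG expectation, at 1.53 and 1.39 fragments for ETS1 and 1.76 and 1.67 for RUNX1. Differences in fold among these genes therefore follow the pileup alone. Since separate loci share these values, they need not be IgG levels measured at each gene. Histone genes of the same class resemble one another in sequence, and how reads that fit several genes were placed is not given in the sources used here.

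Outside the histones, SLC35E2B, a gene with a near-identical copy nearby, had the highest ETS1 folds of all, at 72.6 and 71.0 for ETS1 and 12.3 and 9.54 for RUNX1 (chr1:1692196-1693542, 5′ end). Its IgG expectation was also high, at 31.0 and 28.4 fragments for ETS1 and 35.8 and 39.97 for RUNX1. DPP9, a dipeptidyl peptidase gene, had 35.1 and 37.1 for ETS1 and 13.2 and 10.4 for RUNX1. TBC1D17, a regulator of Rab proteins, had 36.4 and 35.4 for ETS1 and 16.7 and 16.4 for RUNX1. ZNF genes held 14 regions with ETS1 above RUNX1 in every library among their 114 (12.3%), and regions in none of the lists 67 among 1787 (3.75%). T-lineage factors held none among 16, T-cell receptor genes none among 9, solute carriers none among 20 and DNA repair genes none among 9, numbers too small to be told apart from the 5.4% of all regions.

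At the other extreme, IQGAP2, a scaffold of the actin cytoskeleton, had ETS1 folds of 6.48 and 6.74 and RUNX1 folds of 109.0 and 117.0 with summits 12.5 bp apart (chr5:76402118-76402975, 5′ end). CD72, a coreceptor gene best known from B cells, had 15.2 and 17.9 for ETS1 and 105.0 and 107.3 for RUNX1. NKG7, a granule protein gene of cytotoxic lymphocytes, had 12.4 and 12.7 for ETS1 and 85.8 and 95.9 for RUNX1 at summits 4.5 bp apart. DOHH, an enzyme that modifies EIF5A, had 13.7 and 12.4 for ETS1 and 98.3 and 102.1 for RUNX1. All 4 genes thus carried an ETS1 peak above the median ETS1 fold beside a RUNX1 peak several times the median.

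Some of the lowest ratios came from regions where the strongest summits were far apart. D2HGDH, a mitochondrial dehydrogenase gene, had the lowest log2 ratio, −4.79, with ETS1 folds of 3.11 and 4.01 and RUNX1 folds of 99.8 and 97.8 at summits 1974.5 bp apart. Both regions of SIT1, an adaptor gene next to CD72, lay in the same RUNX1 region as CD72, with their ETS1 summits 2145 and 3735 bp from the RUNX1 summit. With the 1989 regions whose RUNX1 summits lay inside the ETS1 region, the median log2 ratio was −1.08, against −1.10 over all 2111.

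Promoter letters were searched in windows from 250 bases before to 50 bases after the start, on both strands, for 1528 genes with a region at the 5′ end, 2830 genes with RUNX1 and no ETS1 there, and all 13792 windows. CCGGAA occurred in 531 of the 1528 windows (34.8%; 32.4 to 37.2), against 27.9% (26.3 to 29.6) with RUNX1 alone and 23.1% (22.4 to 23.9) of all. The longer CCGGAAGT, which contains it, occurred in 10.1% (8.73 to 11.8), against 7.07% (6.18 to 8.07) and 6.45% (6.05 to 6.87). The RUNX cores went opposite ways relative to all promoters. TGTGGT occurred in 9.03% (7.70 to 10.6), against 9.29% (8.28 to 10.4) with RUNX1 alone and 10.9% (10.4 to 11.4) of all. TGCGGT, which was added after values were seen, occurred in 11.8% (10.3 to 13.5), against 12.8% (11.6 to 14.0) and 8.77% (8.31 to 9.25). Either core occurred in 19.6% (17.7 to 21.7), against 20.6% (19.2 to 22.2) and 18.8% (18.2 to 19.5). CCAAT, the box bound by NF-Y, occurred in 43.5% (41.1 to 46.0), against 34.6% (32.9 to 36.4) with RUNX1 alone and 37.1% (36.3 to 37.9) of all.

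GGGCGG, bound by SP factors, occurred in 76.0% of the windows, against 77.0% with RUNX1 alone and 58.5% of all, and median GC content was 66.3%, against 67.3% and 62.7%. The palindromic motif of NRF1 occurred in 3.08%, 2.16% and 1.84% of these sets. CACGTG, the E-box bound by MYC and USF factors, occurred in 10.9%, 10.4% and 8.95%, TGACGTCA, bound by CREB factors, in 3.4%, 3.67% and 2.70%, and the motif of YY1 in 2.68%, 3.18% and 2.02%. GGATGTGG, which joins an ETS to a RUNX core and whose last letters overlap TGTGGT, occurred in 1.83%, 1.45% and 1.65%, and TGTGGTTT in 1.18%, 1.24% and 1.20%, so these longer forms were rare in all sets.

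The cores followed the ratio of ETS1 to RUNX1 fold. The regions at 5′ ends with a promoter window were ranked by their ratio of ETS1 to RUNX1 fold and cut into 4 groups of 383 or 384. CCGGAA occurred in 29.9% (25.6 to 34.7), 26.1% (21.96 to 30.7), 39.2% (34.4 to 44.1) and 44.0% (39.1 to 49.0) of them, from the lowest ratios to the highest. TGTGGT or TGCGGT took the opposite course, with 28.4% (24.1 to 33.1), 20.1% (16.4 to 24.4), 17.5% (14.0 to 21.6) and 12.8% of the groups. The same ranking by the libraries numbered 1 alone gave 29.2% and 44.8% for CCGGAA in the lowest and highest groups and 26.8% and 12.8% for the RUNX cores, and the libraries numbered 2 gave 30.5% and 44.3%, and 28.1% and 13.3%. GGGCGG occurred in 75%, 79.4%, 78.6% and 71.1%, and median GC content was 67.8%, 68%, 66.7% and 63.7%, so GC content moved with the ratio as well and its part in the result was not tested.

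**Figure D5:**
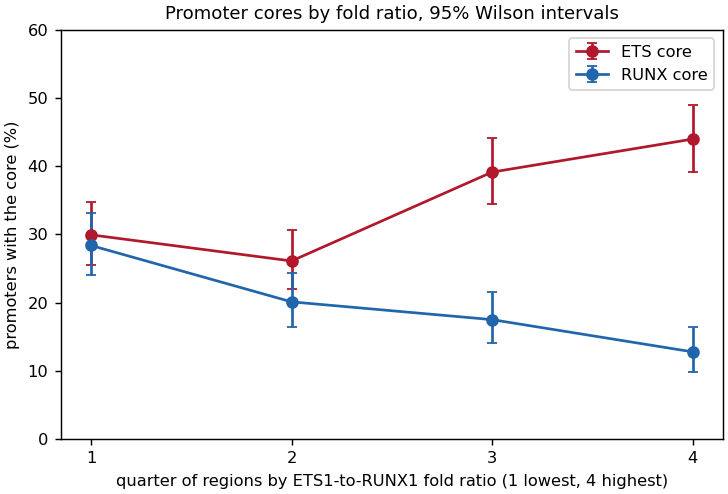
Share of promoter windows that hold CCGGAA (ETS core) or TGTGGT or TGCGGT (RUNX core), in 4 equal groups of regions ordered by the ratio of ETS1 to RUNX1 fold, with 95% Wilson intervals. The ETS core reaches 44.0% in the highest group, and the RUNX cores reach 28.4% in the lowest.

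Ranked by 1 library at a time, the pattern was seen mainly in RUNX1. The share of windows with CCGGAA in the group with the highest folds minus that in the group with the lowest was 1.56 and 7.55 percentage points for ETS1 and −11.7 and −11.7 for RUNX1. For the RUNX cores it was 0 and −0.52 points for ETS1 and 13.3 and 11.5 for RUNX1. The ETS1 and RUNX1 libraries did not overlap in either measure, with differences of 16.3 and −12.6 points (two-sided exact permutation p = 0.333 for each of 2 comparisons, the smallest possible, also 0.333 after Benjamini-Hochberg adjustment). In both RUNX1 libraries the group with the highest folds thus held more RUNX cores and fewer ETS cores than the group with the lowest folds.

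Near the limit of the window, the regions of MCRIP1, LOC124900752 and EOLA2 lay 999, 997 and 995 bp from the gene end. MCRIP1 had ETS1 folds of 3.72 and 3.50 and RUNX1 folds of 11.4 and 10.8. LOC124900752 had 7.01 and 8.65 for ETS1 and 73.2 and 73.3 for RUNX1. Just beyond it, shared regions lay 1001, 1005 and 1011 bp from an end of CD58, ABHD16B and STT3A. CD58 had 6.73 and 8.67 for ETS1 and 34.0 and 33.7 for RUNX1. STT3A had 3.33 and 4.15 for ETS1 and 5.86 and 6.81 for RUNX1. Folds thus varied widely on both sides of the limit.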

How the data were processed

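Peak lists of 4 CUT&Tag libraries were used. Per the submitters' processing notes, the tools were bcl2fastq 2.17, MACS3 3.0.0a6 and Bowtie2, for which no version is named, and the build was hg38. Per the names of the deposited lists, the authors called peaks for each library separately against IgG. How duplicates, multi-mapping reads and the calling threshold were set is not given in the sources used, and the lowest −log10 q values lie between 5.00 and 5.03. Per peak, the deposited lists give the fold over IgG (a ratio), the −log10 p-value and −log10 q-value, the summit, and a score that was not used. In MACS the fold is pileup plus 1 over the IgG expectation plus 1, and p is a Poisson probability. Solving both for a whole-number pileup reached the deposited −log10 p to 0.01, or to a relative 5e-05 where larger, for 100% of the peaks. Read totals are unknown, and the summit pileups (medians of 62, 57, 163 and 152 fragments at the regions) limit the precision of a fold at a weak peak.

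Regions, summits and overlaps were computed with Python 3.11.15, pandas 2.3.3, numpy 2.4.6 and scipy 1.17.1, and the steps were tested on simulated data. Genes and promoters came from RefSeq tables of GRCh38.p14. Of 19974 protein-coding genes, 153 listed by scaffold coordinates were left out. Strand came from the promoter table, which held 15813 of the 19821 genes. A summit gap is the distance between the mean summits of each factor. The genes named are the 10 regions with the highest mean ETS1 fold, the 10 with the highest mean RUNX1 fold, the 6 highest and 6 lowest ratios, up to 4 genes of each list by the lower of both mean folds, and the 3 regions on either side of the window's limit; the text gives the clearest of them. RUNX1, CBFB, LYL1, MYC, LCK, CD7, PIM1, BAX, UQCRC2, IL2RG, SH2D1A and the ETS1 gene were named after their values were seen, and TGCGGT and the ranking by single libraries were added then. The regions and gene lists were chosen with earlier results of these data known. Shares have 95% Wilson intervals, and regions are not replicates, so tests run over the 4 libraries. The labels give ETS1 and RUNX1 libraries the same replicate numbers, but nothing says that a number marks a shared culture. Alternatives comprised stricter peaks, equal numbers of peaks, other overlaps and windows, each library left out and same-numbered libraries as a replicate block.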

Additional observations from a re-analysis of the deposited data

How the results depend on the processing

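The 2111 regions became 1086 with −log10 q of at least 20, 1069 with the 5611 strongest peaks of each library and 1180 with a reciprocal overlap of 50%, and ranged from 2118 to 2474 with a library left out. The listed genes with a region, 318, became 176 with −log10 q of at least 20 and 119 with equal numbers of peaks (321 to 359 with a library left out). The median log2 ratio of ETS1 to RUNX1 fold, −1.10, was −1.04 with −log10 q of at least 20, −1.59 with equal numbers, −0.82 with reciprocal overlap, −1.04 with summits within 100 bp, −1.16 with a window of 2000 bp and −1.06 with one of 500 bp (−1.12 to −1.08 with a library left out). The 114 regions with ETS1 above RUNX1 became 23 with equal numbers, which keep only strong RUNX1 peaks, and 137 to 146 with a library left out. Promoters with the ETS core, 34.8%, became 28.8% with equal numbers, 40.6% with reciprocal overlap and 10.1% with CCGGAAGT (34.4% to 35.4% with a library left out). Promoters with TGTGGT, 9.03%, became 11.4% with equal numbers and 1.18% with TGTGGTTT (8.94% to 9.13%). The share at 5′ ends, 94.1%, was 92.2% with equal numbers, 95.7% with reciprocal overlap, 91.0% with 2000 bp and 96.3% with 500 bp (93.8% to 94.1% with a library left out). With a library left out, the width difference ranged from −683 to −649.75 bp and the summit difference from −23.5 to −13 bp. Pairing same-numbered libraries as a replicate block gave the same differences of −666 and −21.25 bp (exact p = 0.5, the smallest that 2 pairs allow) and a median log2 ratio of −1.11. With equal numbers and with 2000 bp the summit difference was −11.5 and −7 bp (exact p = 0.667 each). Among single lists, 226 recounts stayed within 1.5 times and 49 did not. The 226 include every recount of olfactory receptors and of the myeloid, erythroid and megakaryocyte, and non-blood markers, which had 0 genes under all settings. Of the 25 lists, 5 crossed the share of all genes with equal numbers of peaks (B-cell markers upward; proteasome, oxidative phosphorylation, tRNA synthetases and the anaphase-promoting complex with cohesin and condensin downward), and 3 each with −log10 q of at least 20, with reciprocal overlap and with summits within 100 bp, where T-cell receptor genes went below it. The causes were not tested; fewer peaks kept makes for fewer regions.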

Other observations

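The regions were unevenly spread over the chromosomes. On chromosome 19, 319 of 1410 protein-coding genes (22.6%) had a region at a single end, against 10.5% of all genes, followed by chromosome 22 with 17.5% and chromosome 16 with 16.3%. Chromosomes X (4.83%), 8 (4.95%) and 13 (5.65%) had the lowest shares. An end of a long non-coding RNA gene also lay within 1000 bp at 541 of the 2111 regions (25.6%; 95% Wilson interval 23.8 to 27.5), against 875 of the 4331 RUNX1 regions without ETS1 (20.2%; 19.0 to 21.4). Genes with a region had a median span of 23152 bp, against 32969 bp for genes with RUNX1 only and 24482 bp for all protein-coding genes. Where a gene had several regions, ZNF200 had the most, with 3.

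The ETS core and CCAAT were no denser next to the summits than further away. Around the strongest ETS1 summits, CCGGAA occurred at 1.65 and 1.29 of 1000 positions within 25 bp in libraries 1 and 2, against 2.03 and 2.31 from 25 to 50 bp and 1.89 and 1.87 from 100 to 200 bp. Around the RUNX1 summits, CCGGAA occurred at 1.48 and 1.27 of 1000 positions within 25 bp, against 2.39 and 2.64 from 25 to 50 bp. CCAAT had the same course around ETS1 summits, with 2.40 and 2.36 within 25 bp, against 3.30 and 3.06 from 25 to 50 bp. The RUNX cores were rare, with 11 to 24 matches of each within 25 bp. Around the RUNX1 summits, TGTGGT occurred at 0.474 and 0.492 of 1000 positions within 25 bp, against 0.355 and 0.255 from 25 to 50 bp and 0.441 and 0.360 from 100 to 200 bp. TGCGGT occurred at 0.710 and 0.463 within 25 bp, 0.677 and 1.02 from 25 to 50 bp and 0.498 and 0.388 from 100 to 200 bp. From 50 to 100 bp TGTGGT occurred at 0.340 and 0.427. TGTGGT thus had its highest density within 25 bp of the RUNX1 summits in both libraries, but its counting intervals overlapped at all distances. TGCGGT had its highest density within 25 bp in library 1 and from 25 to 50 bp in library 2, with wide counting intervals. The counts behind these values come from 715 to 742 promoter windows per library that hold the summit.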
